A study of Mus musculus with 6 samples.

Results

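The genes described here are the adenylyl cyclases, which make cyclic AMP (cAMP), and the phosphodiesterases, which break down cAMP and cyclic GMP (cGMP). They were taken by name from the deposited expression table of hippocampal cultures, as every symbol that begins with Adcy or Pde followed by a digit. This gave 36 of the 45291 gene symbols in the table, 10 of them Adcy genes and 26 of them Pde genes, spread over 19 chromosomes. The cultures were set up from newborn C57BL/6 pups of the WT and of the *Fmr1* KO genotype (wild type and knockout), and grown for 14 days in vitro, with 3 libraries each and no treatment named in the labels. Loss of FMRP, the product of *Fmr1* and a protein that binds RNA, underlies fragile X syndrome. The study bred its mice from heterozygous mothers and used male knockouts with WT littermates, but whether the pups for culture were sexed, and which culture lay behind each library, is not stated, so the p-values measure only the spread between these samples, which may be technical.

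Most adenylyl cyclases are membrane enzymes that are switched on by the G protein subunit Gs-alpha, and they differ in whether calcium with calmodulin, the G protein beta-gamma subunits or Gi raise or lower their activity. The resulting cAMP acts mainly through protein kinase A and the exchange factors known as Epac, and further downstream through the transcription factor CREB. Phosphodiesterases end the signal, and their families differ in which of the cyclic nucleotides they accept and in what regulates them. In the hippocampus this pathway is known for its part in synaptic plasticity and memory. The name rule also took in 5 genes whose products are not catalytic phosphodiesterases of cyclic nucleotides. Pde6g and Pde6h encode inhibitory subunits of the photoreceptor enzyme, Pde6d encodes a protein that carries lipid-modified proteins, Pde12 encodes an exonuclease of mitochondria and Pde4dip encodes myomegalin, a scaffold protein of the centrosome and Golgi.

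Values are FPKM, which are fragments scaled by transcript length and by the fragments of the library, so levels can be set side by side between genes. The number of reads is unknown, but the size of the steps among low values puts the relative depth of the other libraries at 1.10 to 1.34 times that of WT replicate 1. *Fmr1* itself was at 19.0, 19.5 and 19.7 FPKM in WT replicates 1 to 3 against 23.1, 21.8 and 18.5 in *Fmr1* KO replicates 1 to 3 (exact permutation p = 0.4, two-sided). Only *Fmr1* KO replicate 3 lay below the WT libraries and the other two lay above them, so the transcript did not check the labels, and every direction given here rests on the labels. The study did see FMRP by Western blot in WT and not in *Fmr1* KO hippocampal tissue, with PCR of the locus beside it, but in mice and not in these cultures. Across the 13195 tested loci, Pearson's r was 0.970 to 0.978 within a genotype and 0.962 to 0.977 between genotypes; loci are not independent replicates.

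Genes were tested if their mean reached 1 FPKM in WT or in *Fmr1* KO, and 25 of the 36 genes passed, 7 Adcy and 18 Pde genes. Just inside this minimum was Pde11a, at 1.05 FPKM in WT and 1.14 in *Fmr1* KO, and just outside it was Adcy7, at 0.795 and 0.667. The mean level of the 25 genes spanned a 115-fold range. The median coefficient of variation between libraries of a genotype was 5.08% for these genes and 6.19% for all tested loci. WT replicate 1 was the lowest of the WT libraries for 16 of the 25 genes, and for all 7 tested cyclases, while it was the lowest for 37.2% of all tested loci. *Fmr1* KO replicate 1 was the lowest of its genotype for 14 of the 25 genes, and for 35.5% of all tested loci.

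**Figure D1:**
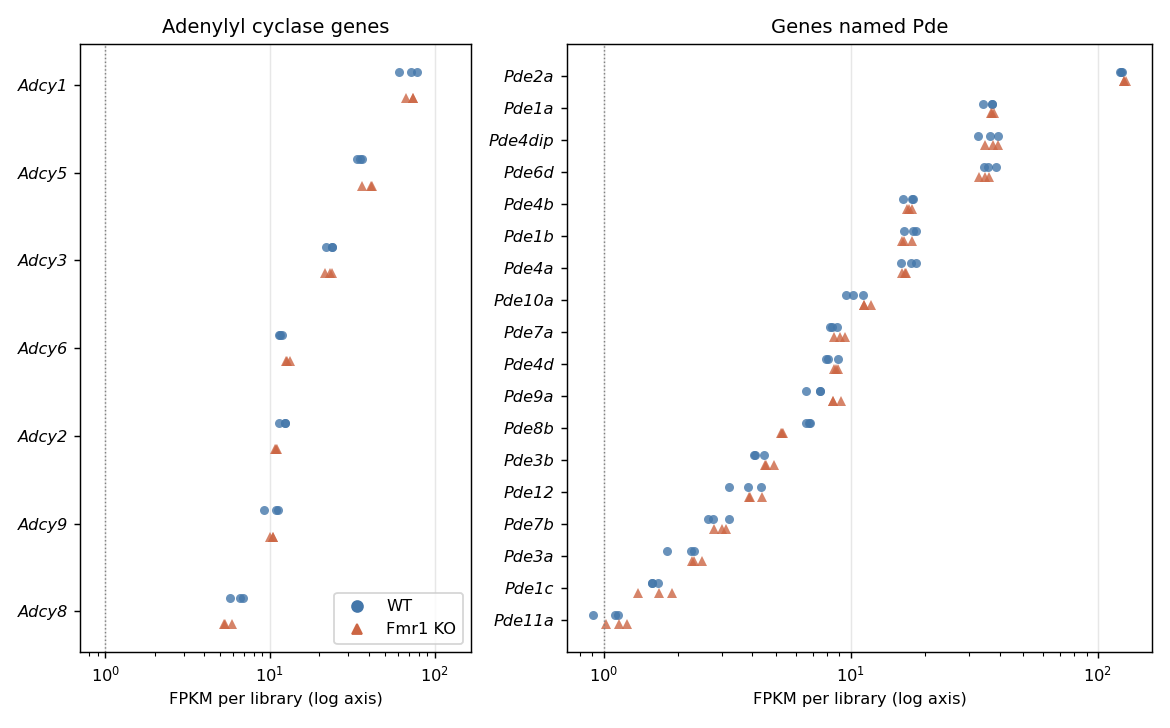
FPKM of the 7 Adcy genes (left) and 18 Pde genes (right) that were tested, on a log axis, with 1 point per library (circles, WT; triangles, *Fmr1* KO) and a dotted line at 1 FPKM. Pde2a sits above 120 FPKM in all 6 libraries and Adcy1 above 60, and the separation of Pde8b between genotypes can be seen against the overlap of most other genes.

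Among the cyclases, the calcium- and calmodulin-stimulated Adcy1 had the highest level, at 61.2, 78.0 and 72.4 FPKM in WT against 67.6, 73.8 and 74.2 in *Fmr1* KO. It made up 41.3% ± 1.98 of the summed FPKM of the 10 cyclases in WT against 41.1% ± 0.157 in *Fmr1* KO (SD, n = 3). Adcy5, which is inhibited by Gi and calcium and is best known from the striatum, was next with 20.7% ± 1.12 and 22.8% ± 0.654 (SD, n = 3). Adcy3, known from olfactory cilia and the primary cilia of neurons, followed with 13.7% ± 0.378 and 13.1% ± 0.186 (SD, n = 3); its libraries were at 21.9, 24.0 and 23.8 FPKM in WT against 21.7, 23.2 and 24.0 in *Fmr1* KO, and overlapped. Adcy6, the closest relative of Adcy5, Adcy2, which responds to G beta-gamma, and Adcy9, which responds weakly to forskolin, had means between 10.3 and 12.8 FPKM. Adcy9 was at 9.26, 11.2 and 10.9 FPKM in WT against 10.004, 10.4 and 10.4 in *Fmr1* KO, with overlap. Their order depended on the genotype, because Adcy2 was above Adcy6 in every WT library and below it in every *Fmr1* KO library. Adcy8, the other cyclase besides Adcy1 and Adcy3 that calcium and calmodulin stimulate, was the lowest of the tested cyclases at 6.39 and 5.50 FPKM. The summed FPKM of the 10 cyclases was 170 ± 12.9 in WT against 175 ± 8.49 in *Fmr1* KO (SD, n = 3), and the libraries of the genotypes overlapped.

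Among the phosphodiesterases, Pde2a stood far above the rest. This enzyme accepts both cyclic nucleotides and is stimulated by cGMP. It had 123, 124 and 125 FPKM in WT against 128, 130 and 127 in *Fmr1* KO, more than 96.9% of all tested loci. It made up 46.6% ± 0.619 of the summed FPKM of the 21 catalytic phosphodiesterase genes in WT against 47.0% ± 0.293 in *Fmr1* KO (SD, n = 3). Of the calcium- and calmodulin-stimulated Pde1 family, Pde1a was at 37.4, 37.4 and 34.4 FPKM in WT against 38.1, 37.2 and 37.0 in *Fmr1* KO. Pde1b was at 18.4, 17.9 and 16.4 FPKM in WT against 17.7, 16.5 and 16.1 in *Fmr1* KO. Both overlapped between genotypes, and Pde1c was far lower, with means of 1.59 and 1.65. Of the cAMP-specific Pde4 family, the target of rolipram, Pde4b was at 17.6, 16.3 and 17.9 FPKM in WT against 17.7, 17.2 and 16.9 in *Fmr1* KO. Pde4a was at 18.3, 17.5 and 16.0 FPKM in WT against 16.2, 16.8 and 16.5 in *Fmr1* KO. These too overlapped, and Pde4d had means of 8.28 and 8.73. Pde4b and Pde1b cannot be ordered, since their libraries overlapped in WT. Pde10a, a dual-specificity enzyme best known from striatal neurons, had 10.3 and 11.6 FPKM. The cAMP-specific and rolipram-insensitive Pde7a, Pde8b and Pde7b had means of 8.48, 6.72 and 2.87 FPKM in WT, and the cGMP-specific Pde9a had 7.20. The cGMP-inhibited Pde3b and Pde3a were lower, at 4.20 and 2.13 FPKM in WT.

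Of the genes without catalytic activity on cyclic nucleotides, Pde6d and Pde4dip were abundant. Pde6d had 38.8, 35.9 and 34.5 FPKM in WT against 36.3, 33.1 and 34.9 in *Fmr1* KO. Pde4dip had 32.8, 39.5 and 36.6 FPKM and 34.9, 37.7 and 39.4. Both sets overlapped between the genotypes. The locus of Pde4dip also carries the symbol of the microRNA gene Mir7225, and that of Pde12 carries Mir7672, so these values cannot be assigned to one symbol. The intervals of Pde4dip, Adcy3, Adcy9 and Pde4d also hold another locus of at least 1 FPKM, and their values are uncertain to that extent.

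The 11 genes under the minimum had means below 1 FPKM in both genotypes. Adcy7 had 0.753, 0.877 and 0.755 FPKM in WT against 0.675, 0.692 and 0.634 in *Fmr1* KO, and the genotypes did not overlap. Without an FPKM minimum its log2 change was -0.22 (SE 0.17; limma adjusted p = 0.731). Pde5a, the cGMP-specific target of sildenafil, had 0.535 FPKM in WT and 0.540 in *Fmr1* KO. Pde8a had 0.272 and 0.231, against 6.72 and 5.28 for Pde8b. The photoreceptor genes Pde6a, Pde6b and Pde6c and the soluble cyclase Adcy10 were below 0.06 FPKM in every library. Adcy4 and Pde6g were below 0.11 FPKM in every library. Pde6h had 0.187, 0 and 0.149 FPKM in WT against 0.501, 1.19 and 0.169 in *Fmr1* KO, which overlapped. Fitted without the minimum, Pde6h had a log2 change of 1.62 (SE 0.66, limma unadjusted p = 0.0455, adjusted p = 0.498). Pde4c has 2 loci in the table, and both were listed at 0 in all 6 libraries.

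The comparison of *Fmr1* KO with WT asked which of these genes differed in transcript level between the genotypes. None of the 25 tested genes passed a Benjamini-Hochberg adjusted p of 0.05 over the 13195 loci fitted with limma on log2(FPKM + 0.1), whereas 35 loci (0.265%) did so in the whole table, 0.0909% of loci as higher and 0.174% as lower. An unadjusted p below 0.05 was reached by 7 of the 25 genes (28%), beside 14.8% of all tested loci. Of these, 4 were higher in *Fmr1* KO, where the background is 6.99%, and 3 were lower, where it is 7.77%. The study, by Cuffdiff on reads at a P below 0.05, listed Adcy5 as higher and Adcy8 as lower among the genes of its enriched pathways. The 3 libraries of one genotype all lay above those of the other for 8 of the 25 genes (32%), beside 21.1% of all tested loci; 6 were higher (background 10.8%) and 2 lower (10.3%). Both criteria were met by 6 genes, 4 higher and 2 lower, beside 13% of all tested loci, 6.3% as higher and 6.68% as lower. The median log2 change of the 25 genes was 0.04, and that of all tested loci was 0.005. In all 25 genes the 95% interval of the log2 change, from -0.49 to 0.53 at its outermost, lay within a 1.5-fold change. In RNA from whole cultures, a lower share of one cell type and less RNA per cell cannot be told apart.

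**Figure D2:**
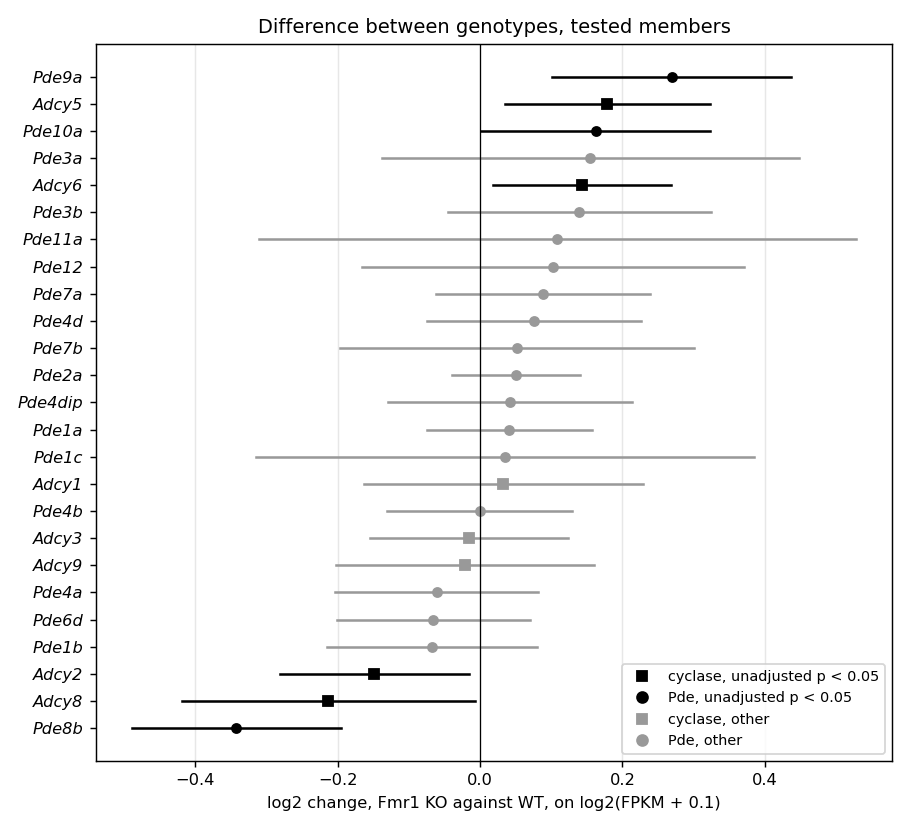
Log2 change of *Fmr1* KO against WT on log2(FPKM + 0.1), with the 95% interval from limma (not adjusted for the number of loci), for the 25 tested genes (squares, Adcy; circles, Pde; black, unadjusted p below 0.05). Pde8b lies farthest to the left at -0.34 and Pde9a farthest to the right at 0.27.

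Pde8b had the largest difference of the tested genes. This high-affinity, cAMP-specific phosphodiesterase had 6.78, 6.82 and 6.57 FPKM in WT against 5.28, 5.23 and 5.33 in *Fmr1* KO. Every *Fmr1* KO library was below every WT library, and the mean in *Fmr1* KO was 0.785 of that in WT. The log2 change was -0.34 (SE 0.06, 95% interval -0.49 to -0.20), with an unadjusted p of 0.000547 and an adjusted p of 0.0753 from limma. Only 0.705% of all tested loci had a smaller p. Over the 6 fits without 1 library it stayed between -0.36 and -0.33, and over all 14 alternative settings the limma adjusted p was 0.065 to 0.265. Its share of the summed FPKM of the catalytic phosphodiesterases was 2.53% ± 0.0389 in WT against 1.93% ± 0.0280 in *Fmr1* KO (SD, n = 3). The locus (XLOC_032413) lies on chromosome 13 from 95024105 to 95250400 in GRCm38.

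Pde9a, the cGMP-specific enzyme with high affinity for its substrate, had 7.48, 6.60 and 7.51 FPKM in WT against 8.50, 9.09 and 8.47 in *Fmr1* KO. The genotypes did not overlap, and the mean in *Fmr1* KO was 1.21 times that in WT. The log2 change was 0.27 (SE 0.07, 95% interval 0.10 to 0.44; adjusted p = 0.167 from limma, unadjusted 0.0057). It stayed between 0.21 and 0.30 with each library left out. Pde8b and Pde9a were the genes below an unadjusted p of 0.05 in all 14 alternative settings, including all 6 that leave out a library; the other 5 genes were not. Pde9a (XLOC_037821) lies on chromosome 17 from 31386212 to 31476310.

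Both cyclases of the group inhibited by Gi and calcium were higher in *Fmr1* KO. Adcy5 had 34.0, 35.4 and 36.1 FPKM in WT against 36.4, 41.2 and 42.0 in *Fmr1* KO. *Fmr1* KO replicate 1 exceeded the highest WT library by little, and the other two were well above it. The log2 change of Adcy5 was 0.18 (SE 0.06; limma adjusted p = 0.254, unadjusted 0.0206), and it was 0.24 without *Fmr1* KO replicate 1. Adcy6 had 11.4, 11.5 and 11.9 FPKM in WT against 12.7, 13.2 and 12.6 in *Fmr1* KO, a log2 change of 0.14 (SE 0.05; limma adjusted p = 0.281, unadjusted 0.029). Their summed FPKM was 46.7 ± 1.29 in WT against 52.7 ± 3.09 in *Fmr1* KO (SD, n = 3). Of the 6 fits that leave out a library, 3 kept Adcy5 and 2 kept Adcy6 below an unadjusted p of 0.05. Adcy5 was at 0.052, 0.0757 and 0.0834 in limma without WT replicate 1 and *Fmr1* KO replicates 2 and 3. Adcy6 was at 0.0578, 0.0704, 0.0521 and 0.103 in limma without WT replicates 1 and 2 and *Fmr1* KO replicates 1 and 2.

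Adcy2 and Adcy8 were lower in *Fmr1* KO. Adcy2 had 11.4, 12.3 and 12.4 FPKM in WT against 10.8, 11.0 and 10.8 in *Fmr1* KO, without overlap. Its log2 change was -0.15 (SE 0.06; limma adjusted p = 0.29, unadjusted 0.0322). Adcy8 had 5.72, 6.87 and 6.60 FPKM in WT against 5.25, 5.92 and 5.31 in *Fmr1* KO, and *Fmr1* KO replicate 2 was above WT replicate 1. Its log2 change was -0.21 (SE 0.09; limma adjusted p = 0.325, unadjusted 0.0445), and it was -0.29 without WT replicate 1. Each cyclase was also taken as a share of the summed cyclase FPKM, to which Adcy1 and Adcy5 contributed most. The share of Adcy8 was 3.67, 3.81 and 3.77% in WT against 3.18, 3.30 and 2.95% in *Fmr1* KO, without overlap. The share of Adcy1 did overlap, at 39.3, 43.3 and 41.4% in WT against 40.9, 41.1 and 41.2% in *Fmr1* KO. Adcy6, whose FPKM did not overlap, overlapped as a share, with WT replicate 1 at 7.32% and *Fmr1* KO replicate 3 at 6.98%. The shares of Adcy2 and Adcy5 did not overlap. For Adcy5 the lowest *Fmr1* KO share was just above the highest WT share. Of the 6 fits that leave out a library, 1 kept Adcy2 and 2 kept Adcy8 below an unadjusted p of 0.05. The shares were a description and were not tested.

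Pde10a had 9.59, 11.2 and 10.2 FPKM in WT against 11.3, 12.1 and 11.3 in *Fmr1* KO. The lowest *Fmr1* KO library was just above the highest WT library. The log2 change was 0.16 (SE 0.07; limma adjusted p = 0.335, unadjusted 0.0478), and it was 0.11 without WT replicate 1. Only 1 of the 6 fits that leave out a library kept it below an unadjusted p of 0.05, that without WT replicate 2.

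**Figure D3:**
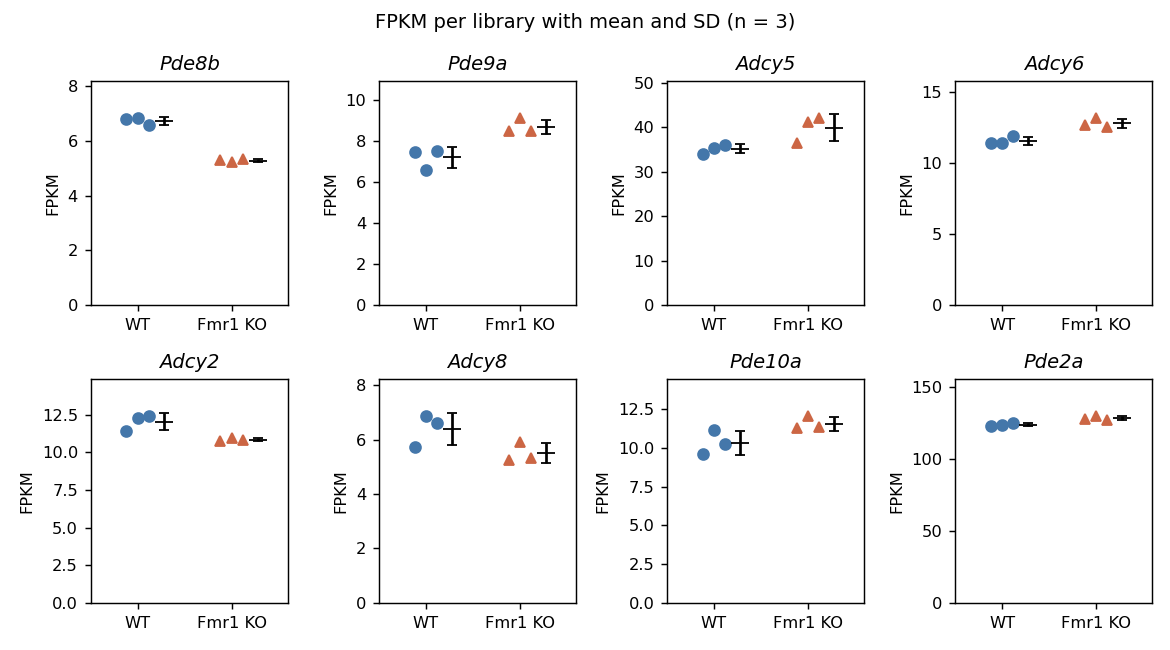
FPKM in each library (circles, WT; triangles, *Fmr1* KO) with the mean and SD of 3 libraries, on axes from 0, for the 7 genes at an unadjusted p below 0.05 and for Pde2a, the most abundant member. Pde8b shows the widest gap relative to its spread, and Adcy8 is the only panel in which the libraries of the genotypes overlap.

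Apart from Adcy5, the most abundant members differed little. Pde2a was higher in every *Fmr1* KO library than in any WT library, but only by a log2 change of 0.05 (SE 0.04, 95% interval -0.04 to 0.14; adjusted p = 0.605 from limma). Pde3b likewise did not overlap, at 4.06, 4.10 and 4.45 FPKM in WT against 4.49, 4.53 and 4.89 in *Fmr1* KO, with a log2 change of 0.14 (SE 0.08; limma adjusted p = 0.467). For Adcy1 the 95% interval of the log2 change was -0.16 to 0.23, for Adcy3 -0.15 to 0.12 and for Adcy9 -0.20 to 0.16. For Pde1a it was -0.07 to 0.16, for Pde1b -0.22 to 0.08 and for Pde6d -0.20 to 0.07. For Pde4a, Pde4b and Pde4d it was -0.20 to 0.08, -0.13 to 0.13 and -0.08 to 0.23, all including 0. Pde7a was at 8.24, 8.39 and 8.82 FPKM in WT against 9.08, 8.54 and 9.46 in *Fmr1* KO, with an interval of -0.06 to 0.24, and that of Pde4dip was -0.13 to 0.21. The widest intervals were those of the low genes Pde11a, Pde1c, Pde3a, Pde12 and Pde7b, whose log2 changes were between 0.04 and 0.16.

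CREB, through which cAMP acts on transcription, is known to bind the cAMP response element TGACGTCA and, more weakly, shorter cores such as TGACGT, so the members' own upstream sequences are of interest beside their levels. RefSeq start sites on GRCm38.p6 were given for 27 of the 36 genes, in 52 windows, and the 250 bases before each start were searched on both strands; TGACGT is part of TGACGTCA. The whole element was in none of the 52 windows and in 1.55% of 32851 windows of all genes. The core TGACGT was in 3 of the 52 windows (5.77%) and in 6.47% of all windows, and the 3 windows belonged to Adcy9, Pde4a and Pde4b. None of these 3 genes had an unadjusted p below 0.05, and their log2 changes were -0.02, -0.06 and -0.0005. No window was given for 6 tested genes, among them Pde9a, Adcy6 and Adcy8, which were below that p, so these were not searched. The bases before a Pde8b start are shown because Pde8b differed most of the tested genes. Those before Adcy9 and Pde4a starts are shown because they hold the core. Capitals mark TGACGT or its reverse complement. The Pde8b stretch, on the minus strand at chr13:95250337-95250586, belongs to 1 of 5 windows of that gene and has no capitals, and which start was used in these cultures is not known from FPKM. The Adcy9 stretch is on the minus strand at chr16:4420499-4420748, and the Pde4a stretch is on the plus strand at chr9:21183851-21184100. A match is a description of letters and not a site of binding.
Pde8b: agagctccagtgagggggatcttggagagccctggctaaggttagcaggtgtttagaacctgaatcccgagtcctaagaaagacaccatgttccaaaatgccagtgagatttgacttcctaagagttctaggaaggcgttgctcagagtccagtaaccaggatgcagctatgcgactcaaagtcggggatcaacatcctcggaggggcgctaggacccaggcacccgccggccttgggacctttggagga
Adcy9: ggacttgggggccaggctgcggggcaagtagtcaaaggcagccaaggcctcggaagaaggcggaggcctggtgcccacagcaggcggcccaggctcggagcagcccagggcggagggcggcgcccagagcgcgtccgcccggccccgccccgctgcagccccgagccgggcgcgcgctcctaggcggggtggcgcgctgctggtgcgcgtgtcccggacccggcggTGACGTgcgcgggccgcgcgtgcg
Pde4a: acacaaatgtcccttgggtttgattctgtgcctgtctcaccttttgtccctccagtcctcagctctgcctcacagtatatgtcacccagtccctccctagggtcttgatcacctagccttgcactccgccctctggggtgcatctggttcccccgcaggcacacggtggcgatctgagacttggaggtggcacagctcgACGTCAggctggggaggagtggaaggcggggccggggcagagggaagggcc

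The rest of the cyclic nucleotide pathway was read from 8 lists with 95 genes, of which 69 were tested. None passed an adjusted p of 0.05 in limma. An unadjusted p below 0.05 was reached by 18 of the 69 (26.1%), 11 higher and 7 lower in *Fmr1* KO, beside 14.8% of all tested loci. The 7 G protein alpha subunit genes, among them Gnas for Gs-alpha, and the 6 subunit genes of protein kinase A held none of them, with median log2 changes of 0.02 and -0.04. Of the genes in these lists, the study by Cuffdiff listed Htr6, Rapgef3, Crtc2 and Nos1 as higher in its enriched pathways. It listed Crhr1 and Adora2a as lower there.

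Of 20 genes for PACAP, related peptides and receptors coupled to Gs, which lie upstream of the cyclases, 15 were tested, of which 2 were higher and 5 lower by the unadjusted threshold, beside 6.99% and 7.77% of all tested loci, with a median log2 change of -0.13. Htr6, a serotonin receptor, had 2.13, 2.14 and 2.28 FPKM in WT against 3.01, 2.85 and 2.78 in *Fmr1* KO (limma log2 change 0.38, adjusted p = 0.154). Gpr3, a receptor with constitutive activity toward Gs, had 3.08, 2.78 and 3.10 FPKM in WT against 2.48, 2.04 and 2.38 in *Fmr1* KO (limma log2 change -0.37, adjusted p = 0.211). Crhr1, the receptor for corticotropin-releasing hormone, had 3.89, 3.93 and 4.24 FPKM in WT against 3.14, 3.56 and 3.02 in *Fmr1* KO (limma log2 change -0.30, adjusted p = 0.212). The genotypes did not overlap for these 3 receptors. The other higher gene was Adcyap1r1, the PACAP receptor, named after its values were seen. It had 50.8, 52.5 and 55.4 FPKM in WT against 56.2, 61.5 and 61.8 in *Fmr1* KO, without overlap (limma log2 change 0.18, adjusted p = 0.22). The summed FPKM of the list, which the low receptors hardly move, was 100 in WT and 103 in *Fmr1* KO, and its libraries overlapped.

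Downstream of the cyclases, Pkia, an inhibitor of protein kinase A, had 78.4, 78.4 and 79.4 FPKM in WT against 96.6, 88.6 and 91.4 in *Fmr1* KO. Its log2 change was 0.23 (SE 0.05, limma adjusted p = 0.0913). Of the 3 inhibitor genes, Pkia alone was below an unadjusted p of 0.05, beside 14.8% of all tested loci. The other 2 had negative log2 changes, and for 1 of them every *Fmr1* KO library was below every WT library. Rapgef3, which encodes an Epac exchange factor, had 7.70, 8.10 and 8.89 FPKM in WT against 9.34, 11.0 and 10.2 in *Fmr1* KO (limma log2 change 0.30, adjusted p = 0.164). Of the 8 tested effectors, it was the 1 below an unadjusted p of 0.05, beside the same 14.8% of all tested loci. Of 12 tested A-kinase anchoring proteins, 11 had a positive log2 change, beside 51.7% of all tested loci, with a median of 0.11. At an unadjusted p below 0.05, 3 were higher and 1 was lower, beside 6.99% and 7.77% of all tested loci. The lower one was Akap5, which anchors the kinase at synapses, with 11.5, 13.2 and 12.8 FPKM in WT against 10.9, 10.1 and 10.6 in *Fmr1* KO (limma log2 change -0.24, adjusted p = 0.185). Akap8 and Akap1 had log2 changes of 0.17 and 0.18 (adjusted p = 0.195 and 0.2 from limma), with no overlap between genotypes.

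Of 10 tested genes of the CREB family and its coactivators, 9 had a positive log2 change, with a median of 0.12, beside 51.7% of all tested loci above 0. At an unadjusted p below 0.05 were Crtc1, Crtc2 and Creb1, all higher (background 6.99%), with log2 changes of 0.15, 0.23 and 0.14 and adjusted p of 0.222, 0.252 and 0.32 from limma. Creb1 itself had 9.19, 9.81 and 9.48 FPKM in WT against 10.3, 10.4 and 10.6 in *Fmr1* KO. On the cGMP side, 8 of 17 genes in the table for guanylyl cyclases, cGMP kinases and nitric oxide synthases were tested. At an unadjusted p below 0.05, 1 was higher and 1 was lower, beside 6.99% and 7.77% of all tested loci. Nos1, the neuronal synthase for nitric oxide, which stimulates the soluble guanylyl cyclase, had the largest positive log2 change of the 69 genes, at 0.45 (limma adjusted p = 0.0654), and its libraries did not overlap. The most negative was -0.62 for the receptor gene Gpr6 (limma adjusted p = 0.24), which lay near 1 FPKM and is named after its values were seen.

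**Figure D4:**
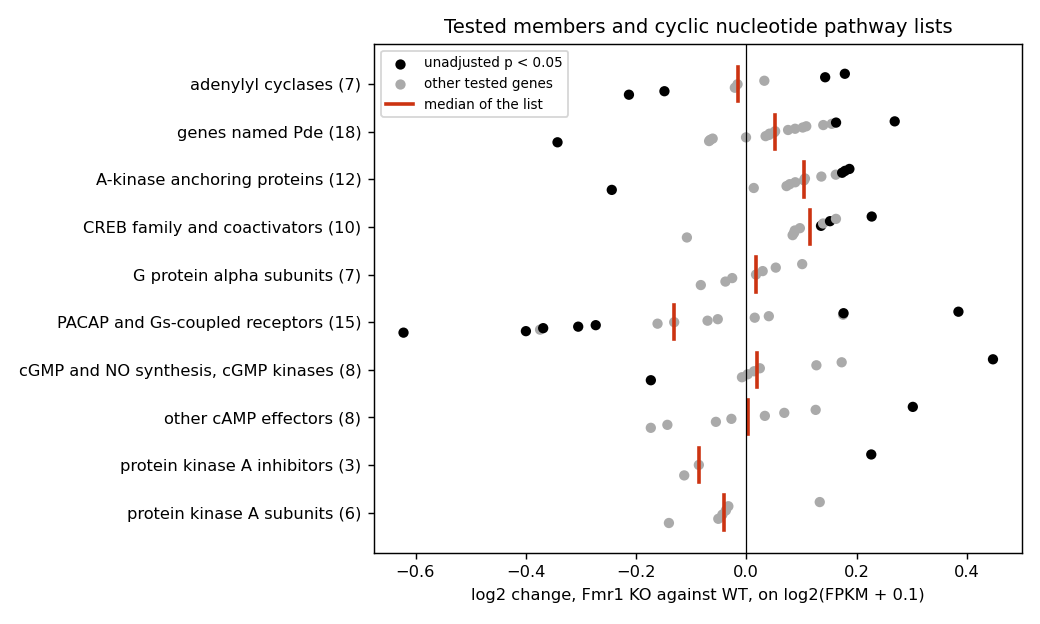
Log2 change of *Fmr1* KO against WT on log2(FPKM + 0.1) for the tested genes of each list, with the number tested in brackets (black, unadjusted p below 0.05; grey, other; red line, median of the list). The cyclases spread to both sides of 0 around a median of -0.02, the A-kinase anchoring proteins and the CREB list lie mostly to the right with medians of 0.11 and 0.12, and the receptor list has a median of -0.13.

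The labels name hippocampal neurons, and RNA of other cells was present. The summed FPKM of 9 astrocyte markers was 1868 in WT and 1896 in *Fmr1* KO, that of 9 excitatory neuron markers 883 and 929, that of 8 inhibitory neuron markers 355 and 345, and that of 9 oligodendrocyte lineage markers 400 and 442, and none of the markers in these lists passed an adjusted p of 0.05 in limma. The libraries of these 4 sums overlapped between genotypes, but single markers within them did not. Of the inhibitory list, 3 were higher in *Fmr1* KO without overlap, Dlx1, Lhx6 and Dlx2 (log2 changes 0.38, 0.34 and 0.57), and Npy was lower (-0.19). Of the oligodendrocyte lineage list, Olig2 and Pdgfra were higher (0.25 and 0.29). Of the excitatory list, Prox1 and Slc17a7 were lower (-0.29 and -0.06) and Camk2a was higher (0.16), and of the astrocyte list S100b was lower (-0.36). These markers are named after their values were seen. The 10 microglia markers, of which Aif1 and Tmem119 were listed at 0 in all libraries, summed to 5.94 to 7.84 FPKM in the WT libraries and 1.17 to 3.17 in the *Fmr1* KO libraries. The 8 markers of proliferating cells summed to 58.6 to 63.1 FPKM in WT and 70.0 to 71.6 in *Fmr1* KO. The 7 endothelial markers summed to 2.98 to 3.39 FPKM in WT and 2.17 to 2.72 in *Fmr1* KO, with Cldn5 listed at 0, and the 9 fibroblast and mural cell markers summed to 62.1 to 65.2 and 53.9 to 59.5. The sums of the microglia, proliferating, endothelial and fibroblast lists and the single markers above, like the levels of Pde8b, Pde9a, Adcy5, Adcy6, Adcy2 and Pde10a, did not overlap between the genotypes, and their part in those differences was not tested.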

How the data were processed

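Primary hippocampal cultures were measured by RNA-seq of total RNA, with 3 libraries per genotype, grouped by the sample titles. Reads had been cleaned (Fastx Clipper for adapters, sickle for quality), aligned to GRCm38 by TopHat2 and turned into loci and levels by Cufflinks and Cuffdiff; the sources used here do not give versions, annotation, library type or scaling. Deposited by the authors were FPKM values for each library; their group FPKM, fold change, p-value and q-value columns were not used. FPKM hold no read counts, so precision rests on the spread between libraries, and reads of genes that overlap on either strand may not be separable.

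Each of the 47086 loci was used once, and a symbol with several loci took the one with the highest mean FPKM. Locus starts in the table count from 0 and are given here from 1. Loci whose mean reached 1 FPKM in WT or *Fmr1* KO were fitted as log2(FPKM + 0.1) with R 4.3.3 and limma 3.58.1 (genotype as the only term, mean-variance trend, two-sided, Benjamini-Hochberg adjustment over all 13195 loci); this scale understates changes of low genes. The fit was tested on simulated data. Exact permutation tests of 3 against 3 libraries (SciPy 1.17.1) cannot give a p below 0.1. Alternatives were pseudocounts of 1 and 0.01, no minimum and a minimum of 5 FPKM, centring, removal of a trend with locus span (lowess), no trend in limma, leaving out each library and the replicate number as a block. Members, roles, lists and tests were chosen with earlier results of these data known. Named members are those below an unadjusted p of 0.05 with separated libraries, the 10 with the highest level and the highest of each role, and up to 3 genes with separated libraries per pathway list; Adcy8 and other members are named to account for all. Sequences are from RefSeq (GRCm38.p6).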

Additional observations from a re-analysis of the deposited data

How the results depend on the processing

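No member passed an adjusted p of 0.05 in limma under any of the 14 alternatives, in either direction. Among pathway genes, 1 gene was higher at an adjusted p below 0.05, in place of 0, with a minimum of 5 FPKM, with the trend with locus span removed and with the replicate block; it was Nos1 each time (adjusted p 0.0439, 0.0451 and 0.0441 from limma). With a minimum of 5 FPKM, 3 in place of 7 were lower at an unadjusted p below 0.05. When 1 library at a time was omitted, members at an unadjusted p below 0.05 numbered 1 to 3 higher (4 with all libraries) and 1 to 3 lower (3 with all), and pathway genes 8 to 12 higher (11) and 4 to 8 lower (7). The count of higher members was 1 without WT replicate 1 and without *Fmr1* KO replicate 2, and 2 without *Fmr1* KO replicates 1 or 3. The count of lower members was 1 without WT replicates 2 or 3 and without *Fmr1* KO replicates 1 or 3. With no FPKM minimum, members at an unadjusted p below 0.05 numbered 5 higher and 2 lower. The sign of 8 members near 0 turned when a library was left out, with log2 changes of -0.066 to 0.11 for Adcy1, -0.028 to 0.10 for Pde4dip, -0.058 to 0.025 for Adcy3, -0.042 to 0.026 for Pde4b, -0.11 to 0.032 for Adcy9, -0.0078 to 0.20 for Pde12, -0.00081 to 0.13 for Pde7b and -0.064 to 0.15 for Pde1c; the cause was not tested. The fit was unpaired because the methods state no pairing. Deviations of same-numbered libraries correlated at 0.24, 0.06 and 0.08 across loci for replicates 1, 2 and 3, beside -0.15 to 0.08 for differently numbered libraries. WT replicate 2 correlated best with another number. The replicate block raised the loci at an adjusted p below 0.05 from 35 to 65 and no member was among them. Absolute depth is unknown, which limits the genes below 1 FPKM most.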

Other observations

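Pde8b lies in a stretch of chromosome 13 where some neighbouring genes also had lower FPKM in *Fmr1* KO. This stretch and its genes were chosen after their values were seen. Of 58 other tested loci within 5 Mb of Pde8b, 10 (17.2%) were at an unadjusted p below 0.05, beside 14.8% of all tested loci. Of the 58, 3 were higher and 7 lower at that p, beside 6.99% and 7.77% of all tested loci. At higher coordinates than Pde8b, Zbed3 had a log2 change of -0.03, Aggf1 of -0.15, Crhbp of -0.59 and F2r of -0.22. Crhbp (95431376 to 95444831), which encodes the binding protein of corticotropin-releasing hormone, had 19.1, 19.9 and 18.8 FPKM in WT against 14.1, 12.5 and 11.9 in *Fmr1* KO (limma adjusted p = 0.0175). At lower coordinates, Wdr41 and Tbca had log2 changes of -0.02 and 0.03, and Scamp1 had -0.14. The share around Pde8b is near that of all tested loci and was exceeded around Adcy6, at 20 of 107 (18.7%), 10 higher and 10 lower. Around Pde9a, 11 of 95 other tested loci within 5 Mb (11.6%) were at an unadjusted p below 0.05. Of the 95, 9 were higher and 2 lower at that p, beside the same 6.99% and 7.77%. Around Adcy2, also on chromosome 13, there were 4 of 59 (6.78%), and around Pde4d on the same chromosome 7 of 47 (14.9%). The shares around Adcy5, Pde10a and Adcy8 were 8.57%, 12.5% and 6.67%, and 1 locus near Pde10a passed an adjusted p of 0.05.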
